A study of Mus musculus with 8 samples.

Results

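Lgr4 and 8 further genes of the R-spondin branch of Wnt signalling were followed in bone marrow and fetal liver of wild-type mice and of mice without Col18a1. The set held Lgr4, Lgr5, Znrf3, Rnf43, Lrp5, Lrp6, Rspo3, Ctnnb1 and Axin2. It was taken as all probe sets that the annotation of the array assigns to a listed gene alone. This gave 17 of 45037 probe sets, for 9 of 18193 genes. The set was chosen from measured values of these arrays: Lgr4 was picked for its lower level in knockout bone marrow, which also sets its interaction with tissue. The other genes were picked as its partners in the pathway, with results of these data known. Values of the bone marrow contrast and of the interaction are therefore given as descriptions with no test.

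R-spondins are secreted proteins that bind receptors of the Lgr family. In the absence of R-spondin, the membrane ubiquitin ligases Znrf3 and Rnf43 remove Frizzled receptors and the co-receptors Lrp5 and Lrp6 from the cell surface. R-spondin joins an Lgr receptor to a ligase, the ligase is cleared, and the cell answers more strongly to Wnt. The signal then reaches beta-catenin, the product of Ctnnb1. Axin2 is a target gene of the pathway and a scaffold of the complex that degrades beta-catenin. In adult liver, R-spondin 3 from central vein endothelium is known for sustaining the Wnt signal around that vein.

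The study measured total RNA on Affymetrix mouse arrays in 4 groups of 2 arrays, each array holding RNA pooled from 2 littermates. Bone marrow was flushed from femurs and tibias of 3-month-old males, either wild-type (Col18a1+/+) or knockout (Col18a1-/-), both lines on C57B6/J. Fetal liver was taken at embryonic day 14.5 from the same 2 genotypes, with the sex of the embryos undetermined in the labels. All 4 groups were unsorted single-cell suspensions, no agent was given, and the knockout is present in every cell of the animal rather than in a chosen cell type. Levels are log2 of the deposited RMA intensity, an array summary with no absolute zero and no count of molecules. No detection calls were used. The number of arrays limits precision, and p-values measure the spread between these pools.

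Arrays of 1 group correlated at r = 0.993 to 0.997 over probe sets, which are not independent replicates. Tissue markers went with the labels: 15 of 15 hepatoblast genes were called higher in wild-type fetal liver, and 13 of 13 neutrophil and 13 of 13 B lineage genes were called lower. Of all genes, 28.7% were called higher and 18.3% lower there. Col18a1 stood at 7.84 and 7.85 on the wild-type and 5.63 and 5.99 on the knockout bone marrow arrays, and at 9.06 and 9.18 against 8.17 and 8.06 in fetal liver, on its _s_at probe set. In fetal liver, genes of the sex chromosomes separated the genotypes. Xist was 11.04 and 11.22 in the wild-type pools against 4.97 and 4.77 in the knockout pools, so genotype and this difference cannot be told apart in fetal liver. In bone marrow, Xist stood at 4.86 and 4.78 in wild-type and at 4.61 and 5.03 in knockout. The wild-type tissue contrast, 6.31 for Xist, thus also holds this sex-chromosome difference, as does the interaction. In the knockout tissue contrast Xist differed by 0.05. What this adds to wild-type tissue gaps was not tested.

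RefSeq promoter sequences (GRCm38.p6) were found for 4 of the 9 genes, namely Lgr4, Rnf43, Ctnnb1 and Axin2. The 250 bases before a listed start are shown for Lgr4, the gene that differed in knockout bone marrow, for Rnf43, which differed between the tissues, and for Axin2, the target gene whose level stayed near the same value. They lie on the plus strand at chr2:109917397-109917646, chr11:87662837-87663086 and chr11:108920099-108920348. Capitals mark matches, on either strand, to CCAAT and to the octamer ATTTGCAT, which were searched after the Lgr4 sequence had been seen; the Rnf43 and Axin2 windows hold neither.
Lgr4: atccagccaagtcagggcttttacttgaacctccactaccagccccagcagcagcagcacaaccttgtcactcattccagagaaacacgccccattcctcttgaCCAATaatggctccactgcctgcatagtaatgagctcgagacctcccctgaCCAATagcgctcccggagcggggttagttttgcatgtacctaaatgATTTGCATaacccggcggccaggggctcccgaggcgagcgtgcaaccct
Rnf43: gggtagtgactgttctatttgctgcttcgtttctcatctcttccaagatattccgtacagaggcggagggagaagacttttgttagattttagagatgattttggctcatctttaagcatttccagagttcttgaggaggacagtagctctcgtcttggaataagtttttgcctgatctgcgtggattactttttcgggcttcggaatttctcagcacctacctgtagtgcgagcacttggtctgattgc
Axin2: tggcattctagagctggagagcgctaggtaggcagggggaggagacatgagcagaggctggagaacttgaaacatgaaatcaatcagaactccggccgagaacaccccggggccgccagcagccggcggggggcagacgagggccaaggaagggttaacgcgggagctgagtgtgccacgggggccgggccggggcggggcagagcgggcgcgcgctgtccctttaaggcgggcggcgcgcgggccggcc

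The Lgr4 window held 2 matches to CCAAT and 1 to the octamer, which do not overlap. A Ctnnb1 window, not shown, also held 2 matches to CCAAT. Among 32851 promoters of the table, 33.8% held CCAAT and 1.6% the octamer in the same 250 bases. ATCAAAG and TTCAAAG, the core letters bound by TCF/LEF factors, had 0 matches on either strand in the Lgr4, Rnf43, Ctnnb1 and Axin2 windows, against 7.48% of all promoters with either. The GATA cores AGATAA and TGATAA also had 0 matches in these windows, against 16.6% of all promoters with either. A match describes the letters only, and no match says that these letters are not in this window. Guanine and cytosine made up 55.6% of the Lgr4 window, 44.4% of the Rnf43 window and 69.2% of the Axin2 window, where the median of all promoters was 52.4%.

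Lgr4, the R-spondin receptor, was measured by 2 probe sets. On the brighter one, its log2 level was 7.72 and 7.69 on the wild-type bone marrow arrays. It was 5.53 and 5.58 on the knockout bone marrow arrays. Both knockout arrays thus lay far below both wild-type arrays, and the arrays within each genotype were close together. On the linear scale the wild-type intensities were 211 and 207 and the knockout intensities 46.3 and 47.7. The fitted difference was -2.15 ± 0.11 (SE, n = 2 arrays a group), a level 4.45-fold lower. This was the probe set's rank 2 among 45037 when ordered from the most negative bone marrow difference.

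In fetal liver, the same Lgr4 probe set stood at 9.85 and 9.71 in wild-type and at 9.76 and 9.86 in knockout. The groups overlapped. The difference was 0.03, with a 95% interval of -0.22 to 0.27, so a fall like that in bone marrow lies outside the interval. From high to low, the order of Lgr4 levels was knockout and wild-type fetal liver, which did not differ beyond their spread, then wild-type bone marrow, then knockout bone marrow. The step from bone marrow to fetal liver was 2.07 ± 0.11 in wild-type and 4.26 ± 0.11 in knockout. The difference between these steps, the interaction of genotype and tissue, was 2.18 ± 0.15, and it contains the bone marrow values on which the gene was chosen.

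The dimmer Lgr4 probe set did not show this pattern. It was 4.33 and 4.43 in wild-type and 4.34 and 4.53 in knockout bone marrow, and between 4.51 and 4.98 on the fetal liver arrays. Its bone marrow difference was 0.06 (95% interval -0.32 to 0.43). On every array its level was below that of more than 50% of the probe sets, between percentile 33.6 and 43.9. Whether it lay too low to register a change was not tested.

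**Figure D1:**
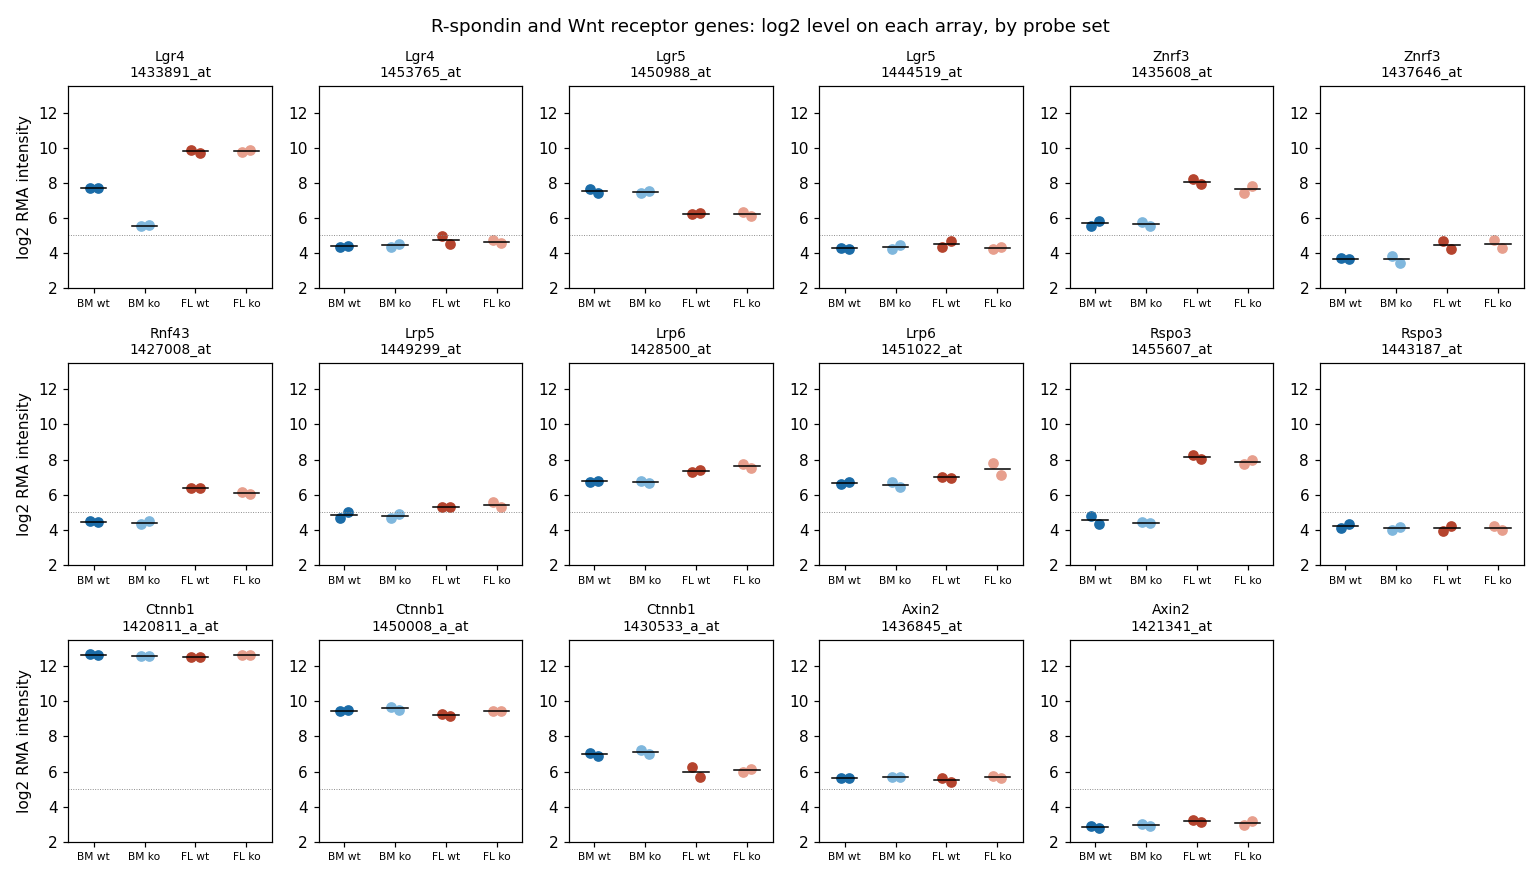
Log2 RMA intensity (vertical axis) of the 17 probe sets on each array, grouped as wild-type (wt) and knockout (ko) bone marrow (BM) and fetal liver (FL). Points are arrays, black lines are group means and the dotted line marks 5. The brighter Lgr4 probe set has a lower level in knockout than in wild-type bone marrow, from 7.71 to 5.55, and the brighter Rspo3, Znrf3 and Rnf43 probe sets are higher in fetal liver of both genotypes.

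Megakaryocyte genes moved with Lgr4 in bone marrow. All 19 measured genes of the megakaryocyte list were below 0 in knockout minus wild-type bone marrow, and 10 of them fell (limma, threshold 0.05 after adjustment over all probe sets), where 0.143% of all genes were called lower. The list was written with these results known, so its count is not independent evidence. The median of the list was -1.05, against 0.01 for all genes. The summed intensity of the 19 genes ran from 22203 to 25954 on the wild-type and from 13098 to 13694 on the knockout bone marrow arrays. In fetal liver the sum ran from 12710 to 13104 in wild-type and from 12806 to 12832 in knockout, with 0 of 19 genes called.

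Lgr4 was chosen on its bone marrow difference, so nothing is read from its place in the order here. The fall of Lgr4 was larger than that of each of the 19 genes. The largest among them was that of Tubb1, the platelet beta-tubulin, at -1.46 ± 0.14, followed by Vwf, which encodes von Willebrand factor, at -1.44 ± 0.17. The transcription factor gene Nfe2 differed by -0.03 and Nbeal2, a gene of platelet granule formation, by -0.01. Pf4, the platelet factor 4 gene, averaged 11.62 on the wild-type marrow arrays and 10.67 on the knockout ones, and its difference of -0.95 ± 0.14 did not pass (adjusted p = 0.0628, limma). The part of megakaryocyte content in the Lgr4 difference was not tested. In such suspensions, fewer cells of a type and less RNA per cell cannot be told apart.

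The megakaryocyte sum in fetal liver was close to that in knockout bone marrow. Lgr4 was 9.78 in wild-type fetal liver and 5.55 in knockout bone marrow. The tissues also differ in other cells, and the source of the Lgr4 signal in either tissue was not tested. Stroma and bone genes had a median of -0.32 in knockout bone marrow, with 13 of 14 negative and 0 called. Their summed intensity was 4760 and 5875 in wild-type and 3527 and 3570 in knockout, and its part in the Lgr4 difference was not tested either. Endothelial genes were negative for 11 of 12 (median -0.14) and B lineage genes for 10 of 13 (median -0.11). Monocyte and macrophage genes were positive for 11 of 12 (median 0.19). In each of these lists 0 were called, and the share of all genes below 0 was not computed.

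**Figure D2:**
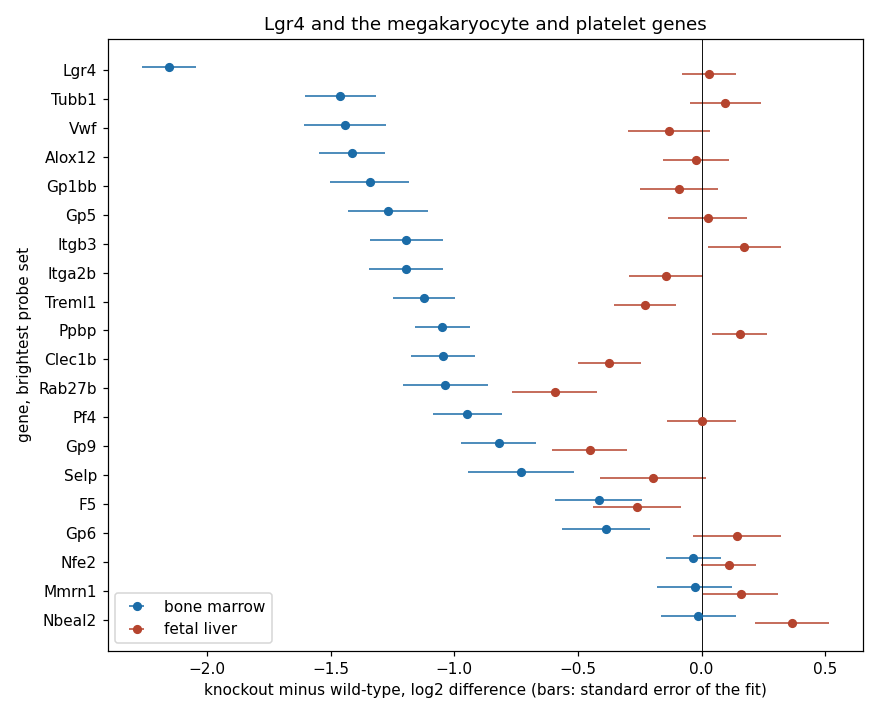
Knockout minus wild-type log2 difference (horizontal axis) of Lgr4 and 19 megakaryocyte and platelet genes, in bone marrow (blue) and fetal liver (red). Points are fitted differences on the brightest probe set of each gene and bars are standard errors. Lgr4 lies furthest left in bone marrow, the contrast on which it was chosen, at -2.15, and at 0.03 in fetal liver.

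Across the 8 arrays, the genes most like Lgr4 (brighter probe set) were Dennd5b (r = 0.997), Tmem158 (r = 0.993), Cald1 (r = 0.992), Gid4 (r = 0.991) and Dapk1 (r = 0.991), out of 12494 genes compared. These r values describe likeness over arrays that share tissue and genotype, and they include the bone marrow values on which Lgr4 was chosen. Cald1, which encodes the actin-binding protein caldesmon, had group means of 9.72 and 8.18 in wild-type and knockout bone marrow and of 11.73 and 11.50 in fetal liver. Dapk1, a death-associated protein kinase gene, had means of 7.05 and 6.11 in bone marrow and 7.94 and 7.98 in fetal liver. Gid4, a subunit of a ubiquitin ligase, covered a much smaller range, with 7.97 and 7.80 in bone marrow and 8.15 and 8.18 in fetal liver. An r of 0.99 or more to Lgr4 was reached by 5 genes, whereas 645 genes reached it with Rspo3, whose pattern is mainly a step between the tissues.

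In knockout bone marrow, 1 of the 17 probe sets passed the threshold of the fit (adjusted p under 0.05, limma), the brighter Lgr4 probe set, where 0.109% of all probe sets did. Nothing is read from that count, since the contrast chose Lgr4. The differences of the other 16 probe sets lay between -0.14 and 0.14. The interval of the brighter Znrf3 probe set was -0.43 to 0.34 and that of Rnf43 -0.31 to 0.19. For Axin2 (brighter probe set) it was -0.21 to 0.31. The median difference of the 17 was -0.05, against 0.01 over all probe sets. The interaction also passed for 1 of the 17, the same Lgr4 probe set, where 0.0289% of all probe sets passed. Nothing is read from that count either, since the interaction contains the bone marrow values on which Lgr4 was chosen.

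Rspo3, the ligand, was the member with the widest gap between the tissues in wild-type mice. Its brighter probe set stood at 4.78 and 4.33 in wild-type and 4.44 and 4.39 in knockout bone marrow. In fetal liver it stood at 8.26 and 8.02 in wild-type and 7.76 and 8.0 in knockout. All fetal liver arrays lay well above all bone marrow arrays. In bone marrow its level reached down to percentile 33.3 of all probe sets, so the size of the gap depends on dim values. The gap was 3.59 ± 0.17 in wild-type, 12.01-fold (adjusted p = 2.79e-07, limma), and 3.47 ± 0.17 in knockout (adjusted p = 3.59e-07, limma). From high to low the order was wild-type and knockout fetal liver, then wild-type and knockout bone marrow, with the genotypes of each tissue not separated by the test.

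The second Rspo3 probe set showed no such gap. It lay between 3.96 and 4.33 on all 8 arrays, and its wild-type difference was -0.13 (95% interval -0.45 to 0.20). It stood at percentile 33.4 of all probe sets or lower on every array. The probe sets of Rspo3 thus disagree, and the tissue gap rests on the brighter one. Genes most like the brighter Rspo3 probe set over the 8 arrays were Phldb2, Aldh18a1, Fndc3b, Grb7 and Cfb, each with r = 0.999.

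Znrf3 and Rnf43, the ligases that R-spondins oppose, were both higher in fetal liver. The brighter Znrf3 probe set stood at 5.55 and 5.83 in wild-type and 5.77 and 5.52 in knockout bone marrow. In fetal liver it stood at 8.19 and 7.93 in wild-type and at 7.43 and 7.81 in knockout. Its tissue gap was 2.37 ± 0.17 in wild-type (adjusted p = 4.47e-06, limma) and 1.98 ± 0.17 in knockout (adjusted p = 1.63e-05, limma). The dimmer Znrf3 probe set went the same way by a smaller step, 0.77 ± 0.19 in wild-type and 0.87 ± 0.19 in knockout (adjusted p = 0.00979 and 0.00544, limma). These calls of the dimmer probe set depended on single arrays: leaving out wild-type bone marrow replicate 2 gave an adjusted p of 0.0533, leaving out wild-type fetal liver replicate 1 gave 0.0694 and, for the knockout gap, leaving out knockout bone marrow replicate 2 gave 0.0541 (limma).

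Rnf43 has 1 probe set. It was at 4.51 and 4.43 in wild-type and 4.34 and 4.48 in knockout bone marrow, and at 6.38 and 6.40 against 6.16 and 6.06 in fetal liver. Its gap was 1.92 ± 0.11 in wild-type (adjusted p = 1.01e-06, limma) and 1.70 ± 0.11 in knockout (adjusted p = 2.40e-06, limma). For each ligase the bone marrow arrays of the genotypes overlapped, and the fetal liver arrays were the higher group throughout.

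Lgr5, the sister receptor known as a marker of intestinal stem cells, went the other way. Its brighter probe set stood at 7.62 and 7.44 in wild-type and 7.40 and 7.56 in knockout bone marrow. In fetal liver it stood at 6.22 and 6.27 in wild-type and 6.35 and 6.14 in knockout. It was thus lower in fetal liver, by -1.29 ± 0.12 in wild-type (adjusted p = 3.00e-05, limma) and by -1.24 ± 0.12 in knockout (adjusted p = 4.44e-05, limma). The second Lgr5 probe set lay between 4.20 and 4.69 on all arrays and passed in neither genotype (differences 0.25 and -0.03).

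The co-receptor genes showed smaller gaps. The brighter Lrp6 probe set stood at 6.74 and 6.81 in wild-type and 6.80 and 6.65 in knockout bone marrow, and at 7.28 and 7.39 against 7.75 and 7.50 in fetal liver. It was higher in fetal liver by 0.56 ± 0.12 in wild-type (adjusted p = 0.0054, limma) and by 0.90 ± 0.12 in knockout (adjusted p = 0.000339, limma). The second Lrp6 probe set differed by 0.32 ± 0.20 in wild-type (adjusted p = 0.24, limma) and was higher by 0.90 ± 0.20 in knockout (adjusted p = 0.00604, limma; 0.0558 without knockout bone marrow replicate 2). Lrp5 lay between 4.67 and 5.04 on the bone marrow arrays and between 5.27 and 5.60 on the fetal liver arrays. Its gap passed in knockout, at 0.64 ± 0.16 (adjusted p = 0.0111, limma), and not in wild-type, at 0.42 ± 0.16 (adjusted p = 0.0685, limma). The knockout call was lost without knockout bone marrow replicate 1 (adjusted p = 0.0924, limma) or knockout fetal liver replicate 1 (0.0761), and the wild-type gap passed without wild-type bone marrow replicate 2 (0.039). The gaps of the genotypes are not shown to differ, the interaction for Lrp5 being 0.23 (95% interval -0.29 to 0.75).

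Ctnnb1, the beta-catenin gene, changed little on its brightest probe set. That probe set stood at 12.70 and 12.63 in wild-type and 12.57 and 12.56 in knockout bone marrow, and at 12.50 and 12.55 against 12.63 and 12.63 in fetal liver. Its tissue difference was -0.13 (95% interval -0.36 to 0.10) in wild-type and 0.07 (-0.16 to 0.30) in knockout. The genotypes did not overlap in either tissue, knockout being lower in bone marrow by -0.10 and higher in fetal liver by 0.10, but neither difference passed and the interaction was 0.20 (95% interval -0.12 to 0.53). The dimmest Ctnnb1 probe set, at 7.08 and 6.88 in wild-type bone marrow and 6.28 and 5.67 in wild-type fetal liver, was 2.01-fold lower in fetal liver (log2 95% interval -1.44 to -0.57; adjusted p = 0.00222, limma). It was also lower in knockout, by -1.05 ± 0.19 (adjusted p = 0.0019, limma). The middle probe set, at 9.47 in wild-type bone marrow and 9.21 in wild-type fetal liver, did not pass (adjusted p = 0.0912, limma), so the 3 probe sets of Ctnnb1 disagree on a tissue gap.

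Axin2, the negative-feedback target, was near 1 level throughout. Its brighter probe set stood at 5.65 and 5.62 in wild-type and 5.70 and 5.67 in knockout bone marrow, and at 5.62 and 5.41 against 5.77 and 5.63 in fetal liver. Its tissue difference was -0.12 (95% interval -0.39 to 0.14) in wild-type and 0.02 (-0.25 to 0.28) in knockout. Measured gaps of the size seen for Rspo3, Znrf3 or Rnf43 lie outside these intervals. This probe set stood only between percentile 50.8 and 55.7 of all probe sets. Whether it lay too low to register a change was not tested. The second Axin2 probe set, between 2.81 and 3.23 on all arrays, was at or below percentile 11.1 on each of them and differed by 0.31 ± 0.12 in wild-type without passing (adjusted p = 0.0646, limma).

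In all, 6 of the 17 probe sets were called higher and 2 lower in wild-type fetal liver than in wild-type bone marrow, where 21.5% and 20.9% of all probe sets were. In knockout mice 8 were higher and 2 lower, where 19.6% and 20% of all probe sets were. The knockout arrays are not shared with the former contrast, but both contrasts use 1 estimate of spread from all 8 arrays. The higher counts include the brighter Lgr4 probe set, for which no test is read, and without the Lgr4 probe sets they were 5 and 7 of 15. The median difference was 0.32 in wild-type and 0.22 in knockout, against 0.07 and 0.05 over all probe sets. Of the 17 probe sets, 12 were at 5 or more on at least 2 arrays, and the other 5 were the dimmer probe sets of Lgr4, Lgr5, Znrf3, Rspo3 and Axin2. Cell content differed widely between the tissues beside these gaps. The summed intensity of 15 hepatoblast genes ran from 397 to 460 on the bone marrow arrays and from 93498 to 100535 on the fetal liver arrays, and the sum of 12 endothelial genes from 722 to 859 and from 2728 to 3081. In wild-type fetal liver 28.7% of all genes were called higher and 18.3% lower than in wild-type bone marrow. Of the 12 endothelial genes 10 were called higher and 1 lower, with a median of 1.61. Of 14 stroma and bone genes 8 were higher and 3 lower, with a median of 0.69. The part of these cells in the gaps of the members was not tested.

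**Figure D3:**
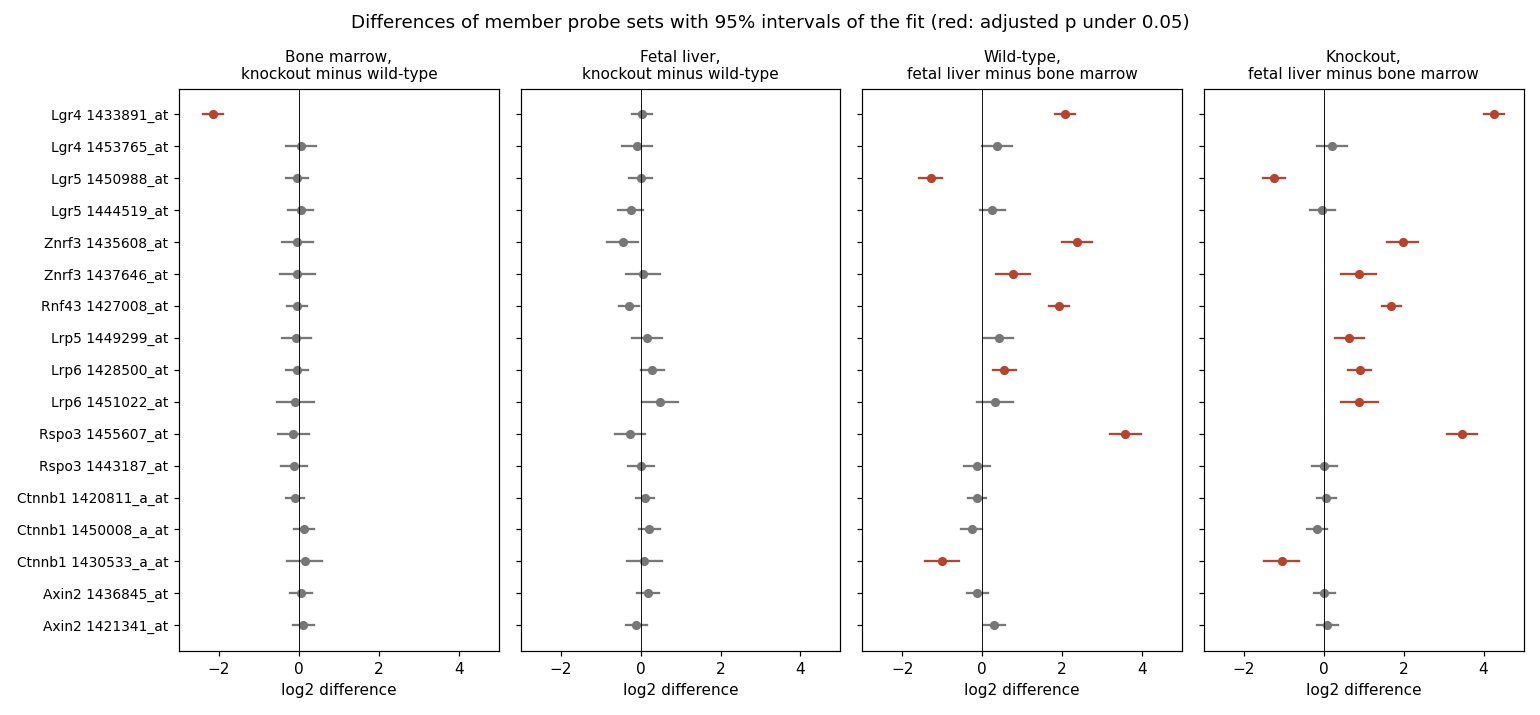
Log2 differences (horizontal axis) of the 17 probe sets in 4 contrasts, with 95% intervals of the fit. Red marks an adjusted p under 0.05, which is a description only for the bone marrow contrast and for Lgr4. In fetal liver none of the knockout differences is red. The brighter Rspo3 probe set and the Znrf3 and Rnf43 probe sets lie to the right of 0 in both tissue contrasts. The dimmer Rspo3 probe set lies at -0.13 in wild-type and 0.02 in knockout.

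Between knockout and wild-type fetal liver, 0 of the 17 probe sets were called, where 0.0555% of all probe sets were called (limma). Unadjusted p-values below 0.05 were found for 4 of 17, or 23.5%, against 16% of all probe sets. The brighter Znrf3 probe set differed by -0.44 ± 0.17 (95% interval -0.83 to -0.06; adjusted p = 0.261, limma) and Rnf43 by -0.28 ± 0.11 (-0.53 to -0.03; adjusted p = 0.265, limma). The Lrp6 probe sets differed by 0.29 ± 0.12 and 0.49 ± 0.20 (adjusted p = 0.298 and 0.287, limma). For all 4 the knockout arrays lay on 1 side of the wild-type arrays. The brighter Rspo3 and Axin2 probe sets did so too, as did the brightest and middle Ctnnb1 probe sets and the dimmer Lgr5 probe set. The share over all probe sets was not computed. Nothing is read from this separation. Knockout replicate 1 stood apart from replicate 2 on the dimmer Lrp6 probe set, at 7.81 and 7.13. Rspo3 (brighter probe set) differed by -0.26 (95% interval -0.64 to 0.12) and Axin2 by 0.19 (-0.08 to 0.45). Xist and Eif2s3y separated the same arrays, with Eif2s3y at 3.29 and 3.00 in wild-type and at 9.38 and 9.42 in knockout, and these contributions cannot be told apart from genotype.

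Other genes of the pathway were taken in 7 lists by role, with 122 genes measured and each gene read on its brightest probe set. By genotype, 0 of the 122 were called in bone marrow and 0 in fetal liver (limma), where 0.159% and 0.055% of all genes were called. An unadjusted p below 0.05 was found for 6 genes in bone marrow (4.92%, against 4.35% of all genes) and for 23 in fetal liver (18.9%, against 15.9%), so both shares were near the background. Between the tissues, 39 were higher and 22 lower in wild-type fetal liver, or 32% and 18%, against 28.7% and 18.3% of all genes. In knockout mice 38 were higher and 19 lower, against 26% and 18.6%. The median of the 122 in wild-type was 0.20, and that of all genes 0.13.

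Among R-spondins and receptors outside the members, Rspo1 was higher in wild-type fetal liver by 0.82 ± 0.21 (adjusted p = 0.00997, limma) and Rspo2 by 0.35 ± 0.12 (adjusted p = 0.0353, limma). Rspo1 was dim, at 3.72 and 4.18 in wild-type bone marrow and 4.62 and 4.93 in wild-type fetal liver. Rspo4 and the third Lgr receptor, Lgr6, did not pass, with differences of -0.01 and 0.26. Of these 4 genes only Rspo2 reached 5 on at least 2 arrays.

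The Frizzled receptors, which the ligases Znrf3 and Rnf43 remove, were listed with co-receptors and with the Vangl and Celsr genes. Of these 19 genes, 12 were higher and 1 lower in wild-type fetal liver, with a median of 0.91. These are 63.2% and 5.26% of the list, beside 28.7% and 18.3% of all genes. Fzd1 was at 5.35 in wild-type bone marrow and 8.17 in wild-type fetal liver, higher by 2.82 ± 0.17 (adjusted p = 1.46e-06, limma). Fzd7 was higher by 2.42 ± 0.12, Fzd5 by 1.61 ± 0.14 and Ptk7, a co-receptor of the planar polarity branch, by 1.72 ± 0.15. In knockout bone marrow Fzd4 differed by -0.48 and Fzd1 by -0.43 without passing, and in knockout fetal liver Fzd2 by -0.62 and Ptk7 by -0.53 without passing (adjusted p = 0.16 and 0.166 in fetal liver, limma). The median over the same 19 genes in knockout mice was 0.80 between the tissues.

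Among 21 genes of Wnt ligands and their secretion, 4 were higher and 3 lower in wild-type fetal liver. At 19% and 14.3%, both shares were below those of all genes, 28.7% and 18.3%. Wnt2 was higher by 2.01 ± 0.12 and Wnt11 by 0.80 ± 0.16. Wls, which carries Wnt proteins to the cell surface, was lower by -1.10 ± 0.12, from 7.59 to 6.49. Of the 21 genes, 11 reached 5 on at least 2 arrays. Of 16 antagonists, 7 were higher and 3 lower (43.8% and 18.8%, beside 28.7% and 18.3% of all genes), with the soluble inhibitors Dkk1 higher by 1.74 ± 0.16, Sfrp2 by 2.05 ± 0.24 and Sfrp1 by 0.97 ± 0.12. In knockout bone marrow Wif1 and Dkk3 differed by -0.52 and -0.57, and neither passed (adjusted p = 0.591 and 0.965, limma).

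Of 24 genes of Dishevelled and the destruction complex, 2 were higher and 7 lower in wild-type fetal liver, with a median of -0.13. These are 8.33% and 29.2%, beside 28.7% and 18.3% of all genes. The kinase gene Gsk3b was lower by -1.40 ± 0.12, the ubiquitin ligase adaptor gene Btrc by -1.33 ± 0.19 and Rnf146, a ligase that acts on axin, by -0.67 ± 0.11. Among 19 genes of TCF/LEF factors and co-factors, 6 were higher and 5 lower, or 31.6% and 26.3%. Tcf7l2 was higher by 2.11 ± 0.11 and the co-repressor gene Tle1 by 1.93 ± 0.11, while Lef1, a factor of early lymphocytes, was lower by -2.31 ± 0.19.

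Of 19 genes listed as Wnt targets, 6 were higher and 3 lower. At 31.6% and 15.8%, these shares were near those of all genes, 28.7% and 18.3%, and are no result about Wnt targets. Prox1, a hepatoblast and lymphatic transcription factor gene, was higher by 4.32 ± 0.17, Ccnd1, the cyclin D1 gene, by 2.28 ± 0.11 and Tbx3 by 2.28 ± 0.12. Sox4, a factor of B cell progenitors among other cells, was lower by -2.61 ± 0.11. Several of these are also known as genes of hepatic or lymphoid cells, whose markers differed between the tissues, and that part was not tested.

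**Figure D4:**
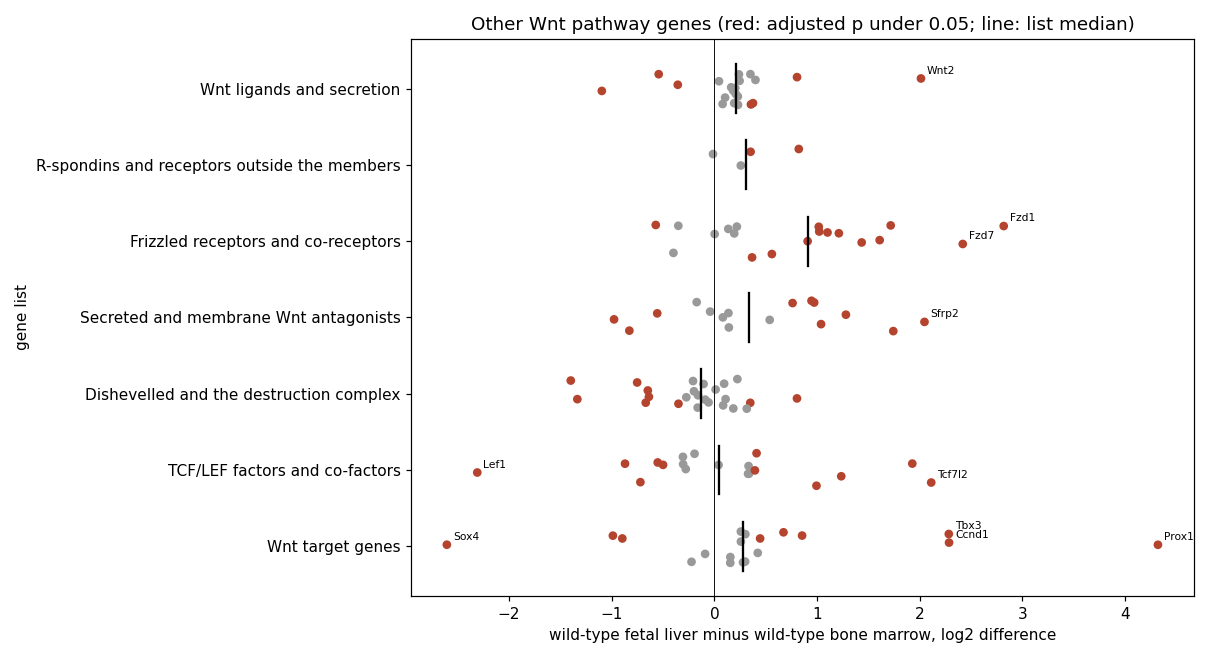
Wild-type fetal liver minus wild-type bone marrow log2 difference (horizontal axis) of 122 genes in 7 lists by role, each on its brightest probe set. Points are genes, red marks an adjusted p under 0.05 and black lines are list medians, which run from -0.13 for the destruction complex list to 0.91 for the Frizzled list.

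By position, Znrf3, Rnf43 and Axin2 lie on chromosome 11, and Lgr5 and Rspo3 lie on chromosome 10, as Col18a1 does. Lgr4 lies on chromosome 2, Lrp6 on chromosome 6, Ctnnb1 on chromosome 9 and Lrp5 on chromosome 19. On the brighter probe sets, Lgr5 and Rspo3 differed in knockout bone marrow by -0.05 (95% interval -0.33 to 0.23) and -0.14 (-0.52 to 0.24).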

How the data were processed

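Biotin-labelled cRNA from bone marrow and fetal liver was hybridised to Affymetrix mouse genome arrays. The authors deposited 1 linear intensity per probe set and array, made with RMA (background correction, quantile normalization, probe summary), per the submitters' processing notes; no source used here names the version. RMA makes arrays alike in distribution and compresses dim differences. Groups came from sample titles. Log2 was taken here, and 64 control probe sets of 45101 were left out. Of the rest, 34945 name 1 gene in the platform annotation, 932 several and 9160 none.

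Group means were fitted by linear models for 45037 probe sets on 8 arrays in R 4.3.3 with limma 3.58.1 (4 residual and 5.01 prior degrees of freedom), with no filter on low values and Benjamini-Hochberg adjustment over all probe sets, two-sided, at 0.05. It was tested on simulated data. For lists, each gene was read on its brightest probe set. Likeness is Pearson's r with the 5 highest named, among genes whose log2 level reached 5 on 2 arrays or more. From each Wnt list, genes with the largest moderated t (up to 4 for wild-type tissue, 2 per genotype contrast) could be named, and those printed were picked from them. Members, lists and alternatives were chosen with earlier results of these data known. The CCAAT and octamer searches were added after the sequence was seen. Alternatives covered filters, normalization, variance model, array weights, a replicate block, an offset of 16, the arrays fitted and each array left out.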

Additional observations from a re-analysis of the deposited data

Results flagged for a closer look

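The genotype difference of Lgr4 (brighter probe set) differed between the tissues by 2.18 ± 0.15 (log2, fetal liver minus bone marrow, SE), being -2.15 in bone marrow and 0.03 in fetal liver. It passed the interaction threshold of the fit (limma), but the gene was chosen on these values, so this is a description. Groups of 2 arrays are too small for a check of single arrays that stand apart.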

How the results depend on the processing

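The counts of member probe sets past the threshold stayed within 1.5 times under all alternatives run, none of which turned a called difference. The count was 1 in bone marrow, 1 for the interaction and 0 in fetal liver under each of them. Between the tissues it ran from 7 to 10 in wild-type and from 7 to 10 in knockout mice. Single-array omissions gave 7 to 9 and 8 to 10. With the replicate number as a block, the counts were 1 in bone marrow, 1 for the interaction, 0 in fetal liver and 8 and 10 between the tissues, as without it. The labels do not say that a number marks shared animals, and deviations of same-numbered arrays correlated at r = -0.09 to 0.02 between groups.

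Of 43 member differences followed over 16 to 18 alternatives each, the 20 past the threshold kept the call in 346 of 352 cases and lost it in 6. Lost were the dimmer Znrf3 probe set (wild-type gap without wild-type bone marrow replicate 2 or fetal liver replicate 1, knockout gap without knockout bone marrow replicate 2), the dimmer Lrp6 probe set (knockout gap without knockout bone marrow replicate 2) and Lrp5 (knockout gap without knockout replicate 1 of either tissue), at adjusted p of 0.0533 to 0.0924 (limma). Lrp5 gained a wild-type call in 3 cases (adjusted p = 0.039 to 0.0424, limma), and an uncalled difference changed sign in 17 of 413 cases. The bone marrow difference of Lgr4 stayed between -2.18 and -1.84. The wild-type tissue gap of the brighter Rspo3 probe set ran from 2.91 to 3.81 and that of Rnf43 from 1.39 to 1.97. No measure of signal over background was used, so what it limits for the 5 dimmer probe sets was not tested.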
